A study of Mus musculus with 7 samples.

Results

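The miR-200 family and miR-205 were followed through Ago2-bound small RNA sequenced from mouse plasma after status epilepticus (SE). The members were chosen by name: the 3p arms of miR-200a, miR-200b, miR-200c, miR-141 and miR-429, and the 5p arm of miR-205. Of these 6 names, 5 had counts among the 640 mature miRNAs deposited, and miR-200c-3p was not analysed here. Argonaute 2 (Ago2) is the protein that holds a mature miRNA and carries it to target transcripts. Plasma Ago2 was immunoprecipitated with an antibody and the bound RNA was made into 1 small RNA library per condition. SE, a prolonged seizure, was triggered by kainic acid (KA) injected into the amygdala, and controls received PBS by the same route.

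The 7 libraries were control 4 h, SE 4 h, control 8 h, SE 8 h, control 24 h, SE 24 h and SE 2 weeks. All mice were adult males, labelled c57 and given in the study's methods as C57BL/6JOlaHsd, with no transgene named and no age given beyond adult. Each library was a pool of plasma from 10 mice, so the spread between animals was not measured and nothing here separates SE from control over replicates. By the study's methods, SE was ended with a benzodiazepine (midazolam or lorazepam), and plasma was screened for haemolysis before use. The 2-week SE library was set against control 24 h, which also served the 24 h comparison, so those comparisons share a control.

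In epithelia, the miR-200 family is best known for repressing the transcription factors Zeb1 and Zeb2, which switch off E-cadherin and other genes of cell-to-cell adhesion. The family is made from 2 gene clusters, and its members fall into groups with different seeds, the stretch at the 5′ end that pairs with targets. miR-205 is not related by sequence, is abundant in stratified and glandular epithelium, and can also repress Zeb transcripts. In bulk plasma, a lower level cannot tell fewer releasing cells from less miRNA released per cell.

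The mature sequences below, from RefSeq on GRCm38.p6, show which members can be told apart by their reads. The seed, bases 2 to 8, is in capitals.
miR-200a-3p: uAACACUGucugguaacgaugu
miR-141-3p: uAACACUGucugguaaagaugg
miR-200b-3p: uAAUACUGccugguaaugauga
miR-429-3p: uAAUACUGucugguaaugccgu
miR-205-5p: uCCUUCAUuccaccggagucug

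All 5 were 22 bases long. miR-200a-3p and miR-141-3p shared the seed AACACUG, and miR-200b-3p and miR-429-3p shared AAUACUG. The seeds of these pairs differed by 1 base, C4U, with positions counted from 1 at the 5′ end and the base of miR-200a-3p first. Of the 640 miRNAs counted, 551 matched a RefSeq sequence, and none of these outside the family had a seed of any member.

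Over their whole length miR-200a-3p and miR-141-3p differed at 2 positions, C17A and U22G. The study's aligner allowed 2 mismatched bases, so reads of this pair could have been exchanged, and how many were was not tested. miR-200b-3p differed from miR-200a-3p and from miR-429-3p at 4 positions each. miR-205-5p differed from every family member at 15 or more positions, beyond the mismatches allowed.

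The genes lay on 3 chromosomes of GRCm38, all on the minus strand. Mir429 (chr4:156053905-156053987), Mir200a (chr4:156054896-156054985) and Mir200b (chr4:156055681-156055750) spanned 1846 bases within an intron of Ttll10 in the GENCODE annotation. Mir429 also overlapped an exon of the transcript Gm13648. Mir141 (chr6:124717914-124717985) lay in an intron of Gm15884 and overlapped an exon of Gm29008, and Mir205 (chr1:193507463-193507530) lay in an exon of the long non-coding RNA 4631405K08Rik.

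Total counts were between 2043220 in control 4 h and 5405357 in SE 4 h, and levels are given as CPM, counts scaled to a common library size after the TMM (trimmed mean of M-values) adjustment of edgeR. A count of 3 was taken as the floor and equalled 0.696 to 1.72 CPM. Control 4 h stood apart: 232 miRNAs had any count there, against 314 to 399 in the others. Its low counts clustered near 102, against 33.1 to 60.2 elsewhere. Without molecular identifiers on the reads, every interval and floor given covers counting error alone.

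The 5 members were a small part of plasma Ago2 RNA. Their joint share was lowest in SE 24 h, at 0.0194% (Wilson 95% interval from 0.0180 to 0.0208). It was highest in SE 8 h, at 0.0653% (from 0.0625 to 0.0682). Summed levels were 469, 313 and 283 CPM in control 4, 8 and 24 h, and 306, 568 and 257 CPM in SE at these times, with 207 CPM at 2 weeks. SE was therefore the higher of the pair at 8 h and the lower at 4 h, 24 h and 2 weeks. miR-141-3p and miR-205-5p supplied between 61.5% and 84.8% of these counts.

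miR-141-3p, the only member detected at 50 CPM of the plain total in all 7 libraries, was the most even. It stood at 121, 170 and 66.1 CPM in control 4, 8 and 24 h (211, 732 and 261 counts). In SE it stood at 129, 237 and 118 CPM at the same times and at 81.6 CPM at 2 weeks (550, 863, 330 and 252 counts). The highest level was 3.58 times the lowest, and the SE and control ranges overlapped. SE was the higher library in each of the 4 pairs, except that at 4 h the log2 fold change turned to between -0.021 and -0.066 with other scalings.

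miR-205-5p, the squamous and glandular miRNA, varied more. Its levels were 227, 58.9 and 171 CPM in the controls at 4, 8 and 24 h (395, 254 and 674 counts). In SE they were 130, 160 and 40.3 CPM at these times and 63.8 CPM at 2 weeks (554, 581, 113 and 197 counts). The highest level was 5.63 times the lowest, and both the highest library and the lowest but one were controls. Per count of miR-141-3p there were 0.342 counts of miR-205-5p in SE 24 h and 2.58 in control 24 h.

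miR-429-3p, the seed partner of miR-200b-3p in the chromosome 4 cluster, dropped almost to nothing in 1 control. It stood at 121, 55.2 and 0.507 CPM in control 4, 8 and 24 h (210, 238 and 2 counts). In SE it stood at 16.2, 144 and 60.3 CPM in time order and at 35.6 CPM at 2 weeks (69, 524, 169 and 110 counts). The 2 counts in control 24 h were under the floor, and every fold against that library rests on them.

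miR-200a-3p, its neighbour in the cluster, was low and nearly flat outside control 4 h. Its levels were 0.574, 29.2 and 45.1 CPM in control 4, 8 and 24 h (1, 126 and 178 counts). In SE they were 23.5, 27.5 and 31.0 CPM at those times and 26.2 CPM at 2 weeks (100, 100, 87 and 81 counts). The 4 SE libraries thus lay within the range of the controls, but its lower end was the 1 count of control 4 h. SE 4 h, SE 8 h and SE 2 weeks lay below control 8 h and control 24 h, and SE 24 h lay between these controls.

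miR-200b-3p, made from the third hairpin of that cluster, had 29 counts at 4 h (6.81 CPM) and 21 at 24 h (7.49 CPM), both in SE. It had 1 count in control 8 h and none in control 4 h, SE 8 h, control 24 h and SE 2 weeks. By counting error alone, a count of 0 allowed a share of up to 0.000147% in control 4 h, the shallowest library. The plot of levels by library shows how differently the 5 members ran.

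**Figure D1:**
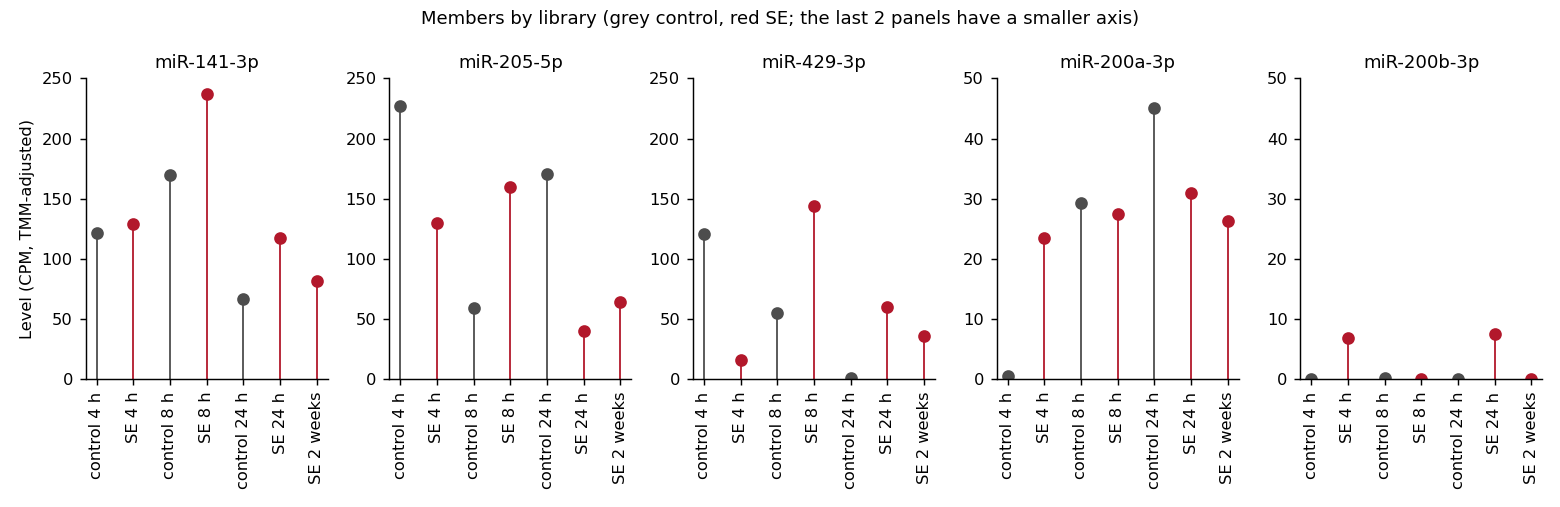
Level of each member (vertical axis, CPM on TMM-adjusted library sizes) in each of the 7 libraries (horizontal axis), with control libraries in grey and SE libraries in red and 1 point per library, so no error bar. The miR-200a-3p and miR-200b-3p axes end at a lower value. miR-141-3p is present throughout, miR-429-3p nearly vanishes in control 24 h, miR-200a-3p in control 4 h, and miR-200b-3p is seen in SE 4 h and SE 24 h.

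Averaged over the 7 libraries, the levels ran in the order miR-141-3p (132 CPM), miR-205-5p (121), miR-429-3p (61.7), miR-200a-3p (26.2) and miR-200b-3p (2.08). Each neighbouring pair in that order overlapped in its range over libraries. Within libraries, miR-200a-3p exceeded miR-200b-3p in 7 of 7, although in control 4 h both were under the floor. Levels of different miRNAs also carry the efficiency with which each sequence enters a library, which was not measured.

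The other strands of the hairpins were sparse. The hairpins of Mir200a and Mir205 are shown, from RefSeq on GRCm38.p6 with both mature arms in capitals, because their second arms had counts.
Mir200a: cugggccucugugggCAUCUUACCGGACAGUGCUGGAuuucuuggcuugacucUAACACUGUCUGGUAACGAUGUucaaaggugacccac
Mir205: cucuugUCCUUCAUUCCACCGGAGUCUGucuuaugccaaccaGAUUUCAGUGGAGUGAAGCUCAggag

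miR-200a-5p had 51 and 61 counts in the control and SE libraries of 8 h and 44 in control 24 h, and none in the other 4 libraries. Where both arms had counts, the 3p arm held 2.47, 1.64 and 4.05 counts for each count of the 5p arm, in that order of libraries. miR-205-3p had 68 counts in control 24 h and none elsewhere, and miR-205-5p held 9.91 counts for each of them. miR-141-5p had 1 count, in control 8 h.

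Pairs of an SE and a control library were tested with edgeR's exact test. The biological coefficient of variation (BCV), the spread assumed between libraries of one condition, was fixed at 0.1. A miRNA was tested at 50 CPM or more of the plain total in either library, and called at an unadjusted p under 0.05 and at least 1.5-fold. Where a single library of a pair reached the filter, the direction of a call was favoured in advance. The test compares the reads of 2 libraries and not the conditions, so calls are given and p-values are not.

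At 4 h, the members that were called were lower in SE. miR-429-3p was called 7.44-fold lower (counting interval 5.64 to 9.91, log2 fold change -2.89), at 16.2 against 121 CPM. It reached the filter in control 4 h alone (103 CPM of the plain total, against 12.8 in SE 4 h), so that direction was favoured. miR-205-5p was called 1.74-fold lower (1.53 to 1.99, log2 fold change -0.80). miR-141-3p was not called, with a log2 fold change of 0.093.

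These were 2 of 3 members tested at 4 h, against 63.0% of the 165 miRNAs tested that were called in either direction. miR-200a-3p and miR-200b-3p were under the filter. miR-200a-3p had 100 counts in SE 4 h and 1 in control 4 h, a ratio of 40.9 with a counting interval of 7.18 to 1632. miR-200b-3p, with 29 counts against 0, was 3.96-fold higher with the floor put in place of the 0. Low counts clustered near 102 in control 4 h, so this is no firm lower bound.

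Since control 4 h stood apart, the same SE library was also set against the other controls. Against control 8 h, miR-429-3p was still called lower (log2 fold change -1.77), whereas miR-205-5p was called higher (1.14). There too miR-429-3p reached the filter in the control alone. Against control 24 h neither was called lower. The log2 fold change of miR-205-5p was -0.39, and miR-429-3p had 69 counts against 2. The ratio of miR-200a-3p turned to a log2 fold change of -0.31 against control 8 h, where it was not tested, and to -0.94 against control 24 h, where it was called lower. The call of miR-205-5p was also lost at a BCV of 0.2 or 0.4 and against the 3 controls pooled (-0.23), and miR-141-3p was called higher against control 24 h (0.97).

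At 8 h, the same members were called in the other direction. miR-429-3p was 2.61-fold higher in SE (2.23 to 3.05, log2 fold change 1.38) and miR-205-5p was 2.71-fold higher (2.33 to 3.15, log2 fold change 1.44). miR-141-3p, at 237 against 170 CPM, was 1.40-fold higher (1.26 to 1.54) and was not called. The 2 calls among 3 members tested stood beside 50% called of the 164 miRNAs tested.

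miR-200a-3p had 100 counts in SE 8 h and 126 in control 8 h, a log2 fold change of -0.090, and was under the filter. miR-200b-3p had 0 and 1 counts. The call of miR-205-5p was lost against control 4 h (log2 fold change -0.51) and control 24 h (-0.098), and that of miR-429-3p against control 4 h (0.26). Both calls were lost at a BCV of 0.4, and that of miR-205-5p against the 3 controls pooled (0.019). miR-141-3p was called higher against control 4 h (0.97), control 24 h (1.84) and the pooled controls (0.73).

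At 24 h, miR-205-5p and miR-141-3p were called in opposite directions. miR-205-5p was 4.24-fold lower in SE (3.47 to 5.22, log2 fold change -2.08), at 40.3 against 171 CPM. It reached the filter in control 24 h alone (197 CPM of the plain total, against 30.4 in SE 24 h), so that direction was favoured. miR-141-3p was 1.78-fold higher (1.51 to 2.10, log2 fold change 0.83), at 118 against 66.1 CPM. miR-200a-3p was tested and not called (log2 fold change -0.54), and was called lower with scaling by library size only (-1.16). The 2 calls among 3 members tested stood beside 45.1% called of the 144 miRNAs tested.

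miR-429-3p had 169 counts in SE 24 h and 2 in control 24 h, a ratio of 119 with a counting interval of 32.4 to 990, and was under the filter at 45.5 CPM of the plain total. With the filter applied to TMM-adjusted library sizes, an alternative chosen after seeing the data, it passed and was called higher. miR-200a-3p, at 45.1 CPM in control 24 h, fell under that filter at 24 h and 2 weeks. Against control 8 h the log2 fold change of miR-429-3p was 0.13, and against control 4 h it was called lower (-0.999). miR-200b-3p, with 21 counts against 0, was 9.85-fold higher with the floor put in place of the 0. Low counts clustered near 55.1 in control 24 h, so this is no firm lower bound either.

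The 24 h call of miR-205-5p was kept against control 4 h (log2 fold change -2.49) and against the 3 controls pooled (-1.84), and was lost against control 8 h (-0.55). The call of miR-141-3p was lost against each of the other controls, with log2 fold changes of -0.041 against control 4 h and -0.53 against control 8 h, and with scaling by library size only (0.21). It was also lost at a BCV of 0.2 or 0.4, and at a filter of 100 CPM miR-141-3p was not tested.

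At 2 weeks, 2 of 3 members tested were called, both lower in SE, beside 33.3% called of the 156 miRNAs tested. miR-205-5p was 2.68-fold lower than in control 24 h (2.28 to 3.15, log2 fold change -1.42). miR-200a-3p was 1.72-fold lower (1.31 to 2.26, log2 fold change -0.78), with 81 counts against 178. It passed the filter in control 24 h alone, at 52.2 CPM of the plain total, where it was highest. At the filter of 50 CPM, every call of it rests on that library, with the direction favoured in advance. miR-141-3p was not called (log2 fold change 0.30). miR-429-3p, under the filter, had 110 counts against the same 2, a ratio of 70.3 (19.0 to 588). Against control 4 h and control 8 h it was called lower instead (log2 fold changes -1.76 and -0.63).

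Control 24 h is not matched in time to SE 2 weeks. Against control 8 h the log2 fold change of miR-205-5p was 0.12 and that of miR-200a-3p -0.16, and neither was called. The call of miR-200a-3p was also lost at a BCV of 0.2, against the 3 controls pooled and with the filter on TMM-adjusted library sizes. That of miR-205-5p was lost at a BCV of 0.4. miR-141-3p was called lower against control 8 h (-1.06) and against the 3 controls pooled (-0.61).

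Control libraries also differed from each other. Control 8 h against control 4 h gave 2 calls among 3 members tested, both lower at 8 h, beside 56.3% of the 167 miRNAs tested. miR-205-5p was 3.85-fold lower (log2 fold change -1.94) and miR-429-3p 2.18-fold lower (-1.13), and miR-141-3p was not called (0.49).

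Control 24 h against control 4 h gave 3 calls among 4 members tested, beside 67.8% of the 171 miRNAs tested. miR-429-3p, with 2 counts against 210, was lower by a ratio of 238 (65.0 to 1976). miR-200a-3p, with 178 against 1, was higher by a ratio of 78.6 (13.9 to 3122). miR-141-3p was 1.83-fold lower (log2 fold change -0.87) and miR-205-5p was not called (-0.41).

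Control 24 h against control 8 h gave 4 calls among 4 members tested, beside 46.1% of the 152 miRNAs tested. miR-429-3p (2 counts against 238) and miR-141-3p (log2 fold change -1.36) were lower at 24 h. miR-205-5p (1.54) and miR-200a-3p (0.63) were higher. The plot of log2 ratios sets these control pairs beside the SE comparisons.

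**Figure D2:**
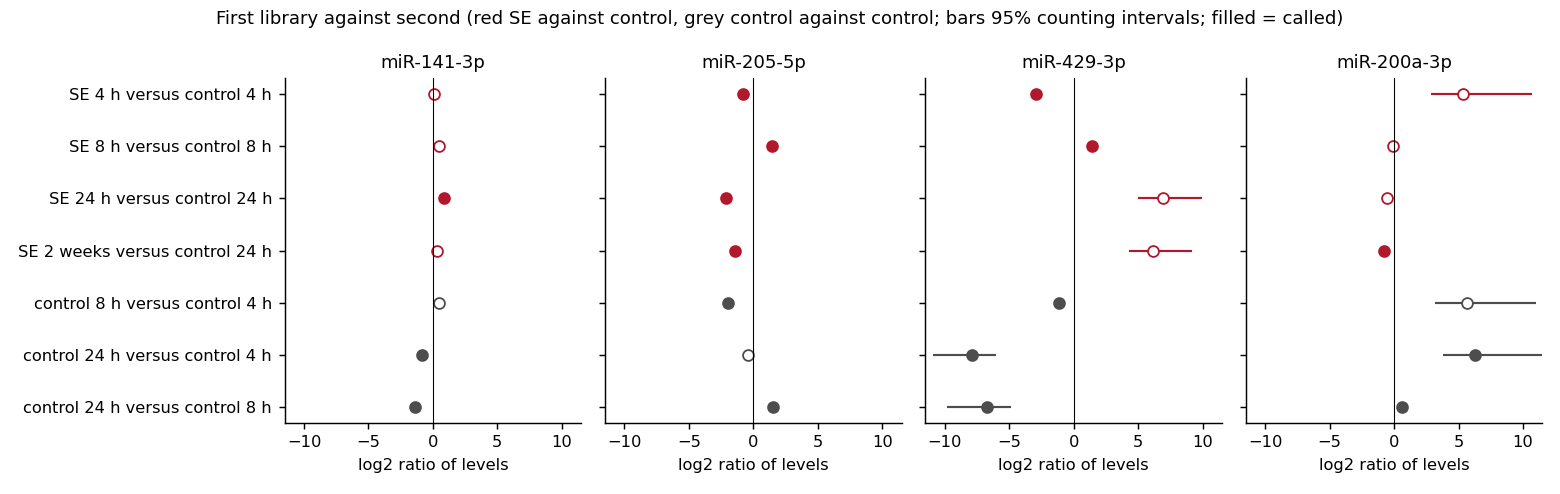
Log2 ratio of levels (horizontal axis) of 4 members for each pair of libraries (vertical axis, the first named over the second), with SE against control in red, control against control in grey, bars for 95% counting intervals and filled points for calls. miR-205-5p is left of zero at 4 h, 24 h and 2 weeks and right of it at 8 h, and its grey control pairs reach from -1.94 to 1.54. miR-200b-3p is not drawn because most of its counts were 0.

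The 6 acute libraries were also pooled into 3 SE against 3 control, although each side then holds 3 time-points of which none is a replicate of another. By edgeR's quasi-likelihood test with Benjamini-Hochberg adjustment, 0 of 137 miRNAs were called (0%), with 15 at an unadjusted p under 0.05, and DESeq2 called 4. The estimated BCV in this comparison was 0.569. The adjusted p was 0.897 for miR-141-3p (log2 fold change 0.41), 0.971 for miR-429-3p (0.35) and 0.901 for miR-205-5p (-0.44). miR-200a-3p and miR-200b-3p were under its filter.

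For each member alone, the exact two-sided permutation test of log2(CPM + 1) over these 6 libraries gave p = 0.5 for miR-141-3p and for miR-205-5p. The exact permutation p was 0.6 for miR-429-3p, 0.9 for miR-200a-3p and 0.4 for miR-200b-3p, where 3 against 3 cannot go below 0.1. On that scale miR-141-3p averaged 7.27 ± 0.55 in SE and 6.81 ± 0.68 in control (SD, n = 3). For miR-205-5p the averages were 6.58 ± 1.06 and 7.05 ± 1.02, and for miR-429-3p 5.74 ± 1.55 and 4.44 ± 3.38. No member, 0 of 5, had SE and control levels that did not overlap, beside 17.3% of the 197 miRNAs that reached 50 CPM in any of the 6. miR-200b-3p did not reach 50 CPM in any library and is not among the 197.

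Because the members' counts were low, each was set beside its library's low-count value, the number at which counts from 6 to 300 were densest. Divided by that value, miR-141-3p gave 2.06 in control 4 h and between 4.74 and 16.6 in the others. miR-205-5p gave 3.86, 4.22 and 12.2 in the controls at 4, 8 and 24 h, and 14.7, 11.2 and 2.50 in acute SE, with 5.95 at 2 weeks. miR-429-3p gave 10.1 in SE 8 h and at most 3.96 elsewhere.

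By the same measure miR-200a-3p lay between 1.92 and 3.23 in 6 libraries and miR-200b-3p never reached 1. With counts divided in this way and rounded before the test, a choice made after seeing the data, the 24 h call of miR-205-5p was the only one kept of the 8 member calls between SE and control. It stood there at 2 against 12, and before the division SE 24 h was under the filter for it. The 7 calls that were lost kept their direction, with log2 fold changes of -2.61 and 1.32 for miR-429-3p at 4 h and 8 h. They were -0.82, 1.46 and -1.36 for miR-205-5p (4 h, 8 h, then 2 weeks), 0.68 for miR-141-3p at 24 h and -0.92 for miR-200a-3p at 2 weeks. The divided counts behind them were small. At 4 h they were 2 in SE against 2 in control for miR-429-3p and 15 against 4 for miR-205-5p. Only the scaling to library totals made both lower there. At 8 h they were 10 against 4 for miR-429-3p and 11 against 4 for miR-205-5p. For miR-141-3p at 24 h they were 7 against 5. At 2 weeks they were 6 against 12 for miR-205-5p and 2 against 3 for miR-200a-3p.

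**Figure D3:**
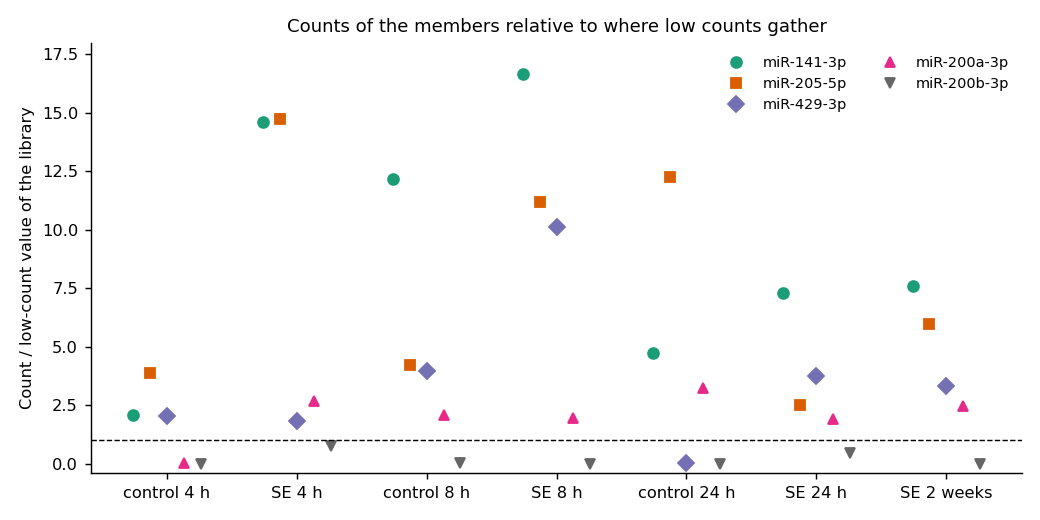
Count of each member over the low-count value of the same library (vertical axis, no unit) for the 7 libraries (horizontal axis), with the dashed line at 1. miR-200b-3p stays under the line, miR-200a-3p is near 2 to 3 outside control 4 h, and miR-141-3p and miR-205-5p reach 16.6 and 14.7.

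The members did not run together over the 7 libraries. On log2(CPM + 1), Pearson's r was 0.74 between miR-141-3p and miR-429-3p, which come from different clusters and have different seeds. It was -0.47 between miR-429-3p and miR-200a-3p, which come from the same cluster. It was -0.085 between the seed partners miR-200a-3p and miR-141-3p, and 0.018 between miR-205-5p and miR-141-3p. These 7 points share scaling and depth, and single low libraries weigh heavily in them.

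Among 202 miRNAs with at least 50 CPM in some library, the one most like miR-205-5p over the 7 libraries was miR-434-5p (r = 0.97), followed by miR-448-3p (0.94) and miR-877-5p (0.88). For miR-141-3p they were miR-410-3p (0.91), miR-136-3p (0.88) and miR-133a-3p (0.87). For miR-429-3p they were miR-24-2-5p (0.89), miR-300-3p (0.86) and miR-434-3p (0.85). The miRNAs most like miR-200a-3p were miR-144-3p (0.99), miR-19a-3p (0.98) and miR-15b-5p (0.98), all with 0 or 1 count in control 4 h. For miR-200b-3p, compared with 203 miRNAs, they were miR-25-3p (0.86), miR-421-3p (0.83) and miR-486b-5p (0.74).

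Other miRNAs known for enrichment in epithelia gave a setting for the members. A list of 13 was used: miR-182-5p, miR-183-5p and miR-96-5p of the sensory epithelial cluster, miR-192-5p, miR-194-5p and miR-215-5p of gut, liver and kidney, miR-203-3p of skin, miR-375-3p of islet and endocrine cells, miR-184-3p of cornea, miR-204-5p and miR-211-5p of pigment epithelium, miR-31-5p and miR-196b-5p. Several of them are also made outside epithelia. All 13 had counts in some library.

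The most abundant was miR-192-5p, at 12050 to 14443 CPM in the 3 controls and 15230 to 22428 CPM in the 4 SE libraries. Its levels in SE lay above all the controls on this scale, but on plain totals SE 4 h (16322 CPM) and SE 24 h (15589 CPM) were under control 24 h (16700 CPM). It was called higher at 4 h (log2 fold change 0.78) and 8 h (0.74) and was not called at 24 h (0.52) or 2 weeks (0.077). miR-215-5p, with which it shares a seed family, ran from 7272 to 9576 CPM (5728 to 11426 CPM on plain totals) and was called at no time-point.

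miR-182-5p was called higher at the 3 acute time-points. It stood at 721, 895 and 657 CPM in control 4, 8 and 24 h, and at 2243, 1976 and 1426 CPM in the acute SE libraries, with 665 CPM at 2 weeks. Its log2 fold changes were 1.64, 1.14 and 1.12, and 0.017 at 2 weeks. The 3 acute SE libraries lay above every control, except that on plain totals SE 24 h (1076 CPM) was just under control 8 h (1093 CPM). On TMM-adjusted levels the 3 acute SE and 3 control libraries did not overlap for 17.3% of 197 miRNAs, miR-192-5p among them. Of these miRNAs 21 were higher in SE and 13 lower. The 2-week library lay among the controls.

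At 4 h, 3 of the 6 list members tested were called, 2 higher and 1 lower, beside the 63.0% of all tested. The lower one was miR-204-5p, at 43.0 against 111 CPM (log2 fold change -1.37), which reached the filter in control 4 h alone. The median log2 fold change of those tested was 0.045, against 0.060 over all tested. The list members under the filter that had counts were all higher in SE 4 h. They were miR-194-5p (154 counts against 0), miR-31-5p (87 against 0), miR-184-3p (78 against 2), miR-196b-5p (38 against 0) and miR-183-5p (27 against 0). Their control was control 4 h, the library that stood apart.

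At 8 h, 6 of 8 tested were called, 5 higher and 1 lower, beside 50% of all. Beside miR-192-5p and miR-182-5p, these were miR-375-3p, at 5758 against 1098 CPM (log2 fold change 2.39), miR-183-5p (2.67, 274 counts against 51) and miR-204-5p (1.77). miR-184-3p had 0 counts in SE 8 h and 6000 in control 8 h. With the floor put in place of the 0 it was 1689-fold lower, again no firm bound. Its counts in the other libraries were between 1 and 115, so control 8 h was the library that stood out. The median log2 fold change was 0.94, with the floor used for miR-184-3p, against 0.20 over all tested.

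At 24 h, 1 of 5 tested was called, beside 45.1% of all, with a median log2 fold change of 0.49 against -0.020. At 2 weeks none of 6 was called, beside 33.3% of all, with a median of 0.047 against 0.013. miR-205-5p was thus called lower at 24 h and 2 weeks while no list member was called lower at either time. List members under the filter went both ways against the same control. At 24 h, miR-184-3p (1 count against 115), miR-196b-5p (9 against 96) and miR-31-5p (58 against 158) were lower. Higher at 24 h were miR-194-5p (106 against 45), miR-204-5p (38 against 0) and miR-183-5p (19 against 0). At 2 weeks, miR-196b-5p (1 against 96), miR-194-5p (0 against 45) and miR-184-3p (38 against 115) were lower. Higher at 2 weeks were miR-183-5p (63 against 0) and miR-211-5p (38 against 0). The difference between miR-205-5p and the list was not tested.

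**Figure D4:**
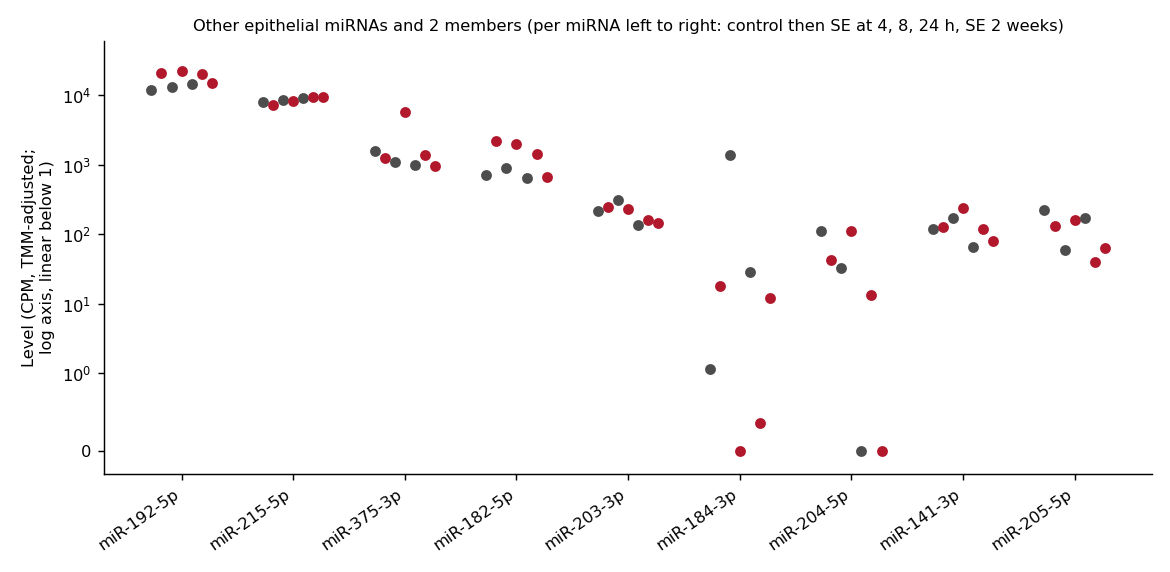
Level (vertical axis, CPM on TMM-adjusted library sizes, log axis that is linear below 1) of 7 other epithelial miRNAs and of miR-141-3p and miR-205-5p (horizontal axis), with control libraries in grey and SE libraries in red. For each miRNA the points run from left to right as control then SE at 4, 8 and 24 h, and then SE 2 weeks. On this scale miR-192-5p and miR-182-5p are higher in the 3 acute SE libraries than in any control, which does not hold for every such library on plain totals, miR-215-5p is flatter, and miR-141-3p and miR-205-5p lie at 237 CPM or below.

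A mesenchymal and smooth muscle list of 6 was taken as the counterpart, of which 5 had counts, and miR-199a-3p was not analysed here. Of those tested, 2 of 2 were called higher at 4 h, 3 of 3 at 8 h, 0 of 2 at 24 h and 1 of 2 at 2 weeks, and none was called lower. Over all miRNAs tested, 63.0%, 50%, 45.1% and 33.3% were called at these times. miR-143-3p, the smooth muscle miRNA, was called higher at 4 h (log2 fold change 1.67), 8 h (0.75) and 2 weeks (0.64). miR-199b-3p was called higher at 4 h (1.18) and 8 h (0.63). miR-199a-5p, with 213 counts against 1, was called at 8 h. It reached the filter in SE 8 h alone, so that direction was favoured in advance. The medians were 1.43, 0.75, 0.43 and 0.22 in time order, against 0.060, 0.20, -0.020 and 0.013 over all tested. List members under the filter went both ways. At 4 h miR-145a-5p was lower in SE (53 counts against 90), and miR-199a-5p (143 against 0) and miR-214-3p (95 against 0) were higher. At 8 h miR-214-3p was lower (38 against 103) and miR-145a-5p higher (96 against 28).

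The known markers of blood cells, endothelium and liver were checked for plasma, 10 in all. miR-486b-5p, an erythroid miRNA, was the most abundant of them in every library, at 520595 CPM or more. The erythroid miR-451a stood at 1.72 to 20.5 CPM. The liver miRNA miR-122-5p had counts in the SE libraries of 4 h (59), 24 h (1) and 2 weeks (55), and none in the other 4 libraries. At 4 h, 3 of 7 tested were called, all higher in SE, beside 63.0% of all tested, with a median log2 fold change of 0.48 against 0.060. The same markers were also called higher in the later controls than in control 4 h, 3 of 7 in control 8 h (median 0.37) and 5 of 7 in control 24 h (0.99), with 1 of 7 called lower in each. Over all miRNAs tested, 56.3% and 67.8% were called in these control pairs, with medians of -0.23 and -0.16.

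Of these markers 0 of 7 were called at 8 h (median -0.022), 1 higher and 1 lower of 7 at 24 h (0.039), and 1 lower of 7 at 2 weeks (-0.15). The shares called over all tested were 50%, 45.1% and 33.3%, with medians of 0.20, -0.020 and 0.013. miR-144-3p, an erythroid miRNA, had 0 counts in control 4 h, where miR-200a-3p had 1, and 599 to 1634 counts elsewhere. The part of blood cell or liver RNA in the members' levels was not tested.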

How the data were processed

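Ago2-bound small RNA from 7 plasma pools was analysed, 1 library for each condition. In Chimera, the authors removed adapters, kept reads of miRNA size and matched them by BLASTn to miRBase with 2 mismatches allowed, and deposited raw counts of reads per mature miRNA. The Chimera version is not given in the sources used here.

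Counts were scaled by TMM over all 7 libraries in edgeR 4.0.16 (R 4.3.3, limma 3.58.1). The exact test of edgeR was run on pairs of libraries at a BCV of 0.1 with a prior count of 0.125, over miRNAs with at least 50 CPM of the plain total in either library. Acute SE and control libraries were compared by edgeR's quasi-likelihood test with Benjamini-Hochberg adjustment and, for each member, by exact permutation of log2(CPM + 1). Intervals are 95% Wilson intervals for shares and counting intervals for ratios. Ratios with 1 to 3 counts have their interval, and a 0 was replaced by the floor of 3 counts. The low-count value was where a Gaussian kernel density (bandwidth 0.15, natural log scale) of counts between 6 and 300 peaked. Tests were checked on data simulated at a BCV of 0.1. The BCVs estimated from these libraries were 0.569 and 1.07, so the check does not show how the tests behave on them. Python 3.11.15, numpy 2.4.6, pandas 2.3.3, scipy 1.17.1 and matplotlib 3.10.9 were used for tables and figures, and loci are from GENCODE M21.

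The miRNAs named are the members, the other arms of their hairpins, miRNAs with the same seed, the epithelial, mesenchymal, and blood and liver lists, and the 3 miRNAs most like each member. The members and lists were chosen with earlier results of these data known. Alternatives covered scaling, the BCV (0.2, 0.4 or estimated from the controls), the filter, the likelihood ratio test, the prior count, adjusted p-values, the control library, DESeq2 1.42.0, the replicate block, leave-one-out, the pseudocount (0.1 or 10) and the bandwidth (0.1 or 0.25). Counts divided by the low-count value, the filter on TMM-adjusted sizes and other settings for control pairs were chosen after seeing the data.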

Additional observations from a re-analysis of the deposited data

Results flagged for a closer look

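Directions that differed between time-points drew attention to 2 members. miR-429-3p had a log2 fold change of -2.89 at 4 h and 1.38 at 8 h, each SE library against its own control. miR-205-5p had log2 fold changes of -0.80 and 1.44 at 4 and 8 h, then -2.08 at 24 h and -1.42 at 2 weeks, the last against control 24 h. The values of -2.89 and -2.08 come from pairs where the control alone reached the filter. With 1 library per condition, the difference between time-points was not tested. Between control 4 h and control 8 h, the 2 miRNAs moved by -1.13 and -1.94 with no kainic acid in either library.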

How the results depend on the processing

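The number of miRNAs called, given here in time order from 4 h to 2 weeks, depended most on the BCV and the filter. It was 40, 25, 20 and 10 at a BCV of 0.4, and 12, 7, 6 and 2 at the BCV of 1.07 estimated from the controls. At a BCV of 0.2 the 2-week count was 30. With any count tested the numbers were 310, 257, 261 and 238, and with at least 10 CPM 195, 236, 218 and 200. At 100 CPM they were 54, 41 and 29 from 8 h on. With counts divided by the low-count value they were 32, 26, 21 and 9. Pooled controls gave 64 at 4 h, and control 4 h as the control gave 109 at 24 h and 109 at 2 weeks. Control pairs at a BCV of 0.4 gave 42 (8 h against 4 h), 55 (24 h against 4 h) and 16 (24 h against 8 h).

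Scaling by library size only moved every log2 fold change by -0.62 at 24 h and -0.11 at 4 h, and by under 0.1 at 8 h and 2 weeks. DESeq2 size factors moved those of 4 h by -0.13. Directions turned as follows, in log2 fold change. miR-141-3p at 4 h went to -0.021 with library size only, -0.040 with DESeq2 size factors, -0.066 with TMM over the pair, -0.10 with pooled controls and -0.39 against control 8 h. At 24 h it went to -0.16 (pooled), -0.041 (control 4 h) and -0.53 (control 8 h), and at 2 weeks to -0.61, -0.57 and -1.06 under the same settings. miR-205-5p went to 1.14 at 4 h and 0.12 at 2 weeks against control 8 h, and at 8 h to -0.51 with control 4 h and -0.098 with control 24 h as the control. miR-429-3p at 4 h went to 4.92 against control 24 h. miR-200a-3p went to 5.63 at 24 h and 5.39 at 2 weeks against control 4 h, and to 0.086 at 24 h with control 8 h in its place. Members under the filter turned too: miR-200a-3p at 4 h to -0.31, -0.58 and -0.94 (control 8 h, pooled, control 24 h) and at 8 h to 5.47 (control 4 h) and 0.027 (divided counts), and miR-429-3p to -0.999 at 24 h (control 4 h) and at 2 weeks to -1.76, -0.39 and -0.63 (control 4 h, pooled, control 8 h). The values above 4 rest on 1 or 2 counts in a control.

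The BCV estimated from the controls removed the calls of miR-429-3p and miR-205-5p at 4 h and 8 h, of miR-205-5p at 24 h and 2 weeks, of miR-141-3p at 24 h and of miR-200a-3p at 2 weeks. The 3 against 3 comparison called 3 miRNAs with any count tested, 4 with DESeq2 and 0 with time-point as a replicate block. Leave-one-out by time-point gave 0 to 5 calls, with 5 without 24 h, where miR-429-3p turned to -0.26, and its values over the 2 runs in which it passed the filter lay between -0.26 and 1.77. Without miR-486b-5p in the total, the members' shares were 0.167%, 0.118% and 0.0990% in control 4, 8 and 24 h, and 0.0742%, 0.174% and 0.0810% in acute SE, with 0.0685% at 2 weeks. The cause of these changes was not tested. miR-200b-3p was under the filter in all 7 comparisons and miR-200a-3p in 3.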
